A study of Mus musculus with 32 samples.

Results

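Cirbp (cold-inducible RNA-binding protein, ENSMUSG00000045193) and Rbm3 (RNA-binding motif protein 3, ENSMUSG00000031167) were followed over the day in interscapular brown adipose tissue (iBAT), a thermogenic fat depot on the upper back. They are 2 of the 50686 genes in the count table and were taken from it by gene symbol, with earlier results of these data known. Both were counted in each of the 32 libraries and passed the filter on low counts, as did 15505 genes in all. The tissue came from male C57BL/6J mice of 10 weeks that were fed chow ad libitum and housed below the thermoneutral zone of the mouse, with no added cold or heat. Every group shared this strain, age, diet and housing, and the groups are set apart by Zeitgeber time (ZT), the hours since lights on. Lights went on at ZT0, when the inactive phase begins, and off at ZT12, and 4 mice were killed at each of 8 time points 3 h apart. The samples are whole tissue, so that fewer cells of a type and less RNA per cell cannot be told apart.

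CIRBP and RBM3 are small, closely related proteins that join an RNA-recognition motif to a glycine-rich tail. Both are known as cold-shock proteins of mammals: their transcripts accumulate when cells are cooled mildly and decline when cells are warmed, in part through temperature-dependent splicing, and for Rbm3 this includes a poison exon that sends the transcript to decay. CIRBP binds transcripts of clock genes such as Clock and is regarded as a link between the daily rhythm of body temperature and the cellular clock. Heat-shock genes form the opposite arm of the temperature response, and mouse body temperature is higher in the active phase. No body or tissue temperature was analysed here, and counts per gene do not separate splice forms.

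Cirbp lies on chromosome 10 of GRCm38, at chr10:80165985-80172786 on the plus strand, with 2604 exonic bases in 7 annotated transcripts. Of these, 2 code for protein, 1 is marked for nonsense-mediated decay and 4 retain an intron. Rbm3 lies on the X chromosome, at chrX:8138975-8145880 on the minus strand, with 4698 exonic bases in 11 transcripts, of which 6 code for protein, 2 are marked for nonsense-mediated decay and 2 retain an intron. The coding sequences of the 2 genes are related but separable by reads: over 450 aligned bases, 328 (72.9%) were identical, and the longest identical run was 11 bases. A stretch of 60 coding bases that spans an exon junction (coding positions 87 to 146 in both genes, chrX:8144637-8144971 and chr10:80169900-80170058) shows this, and is printed because it bears on whether the 2 counts can share reads. Capitals mark the 13 bases at which Cirbp differs from Rbm3.
Rbm3: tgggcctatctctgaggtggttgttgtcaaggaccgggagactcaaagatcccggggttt
Cirbp: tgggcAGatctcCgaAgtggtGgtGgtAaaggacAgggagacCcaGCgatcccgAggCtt

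None of the 2793 stretches of 100 bases (the read length) in the transcripts of Cirbp occurred in a transcript of another gene. For Rbm3, 289 of 5390 stretches (5.36%) did. The processed pseudogene Rbm3-ps shared 165 of them, Gm10156 shared 149 and Gm48583, for which no counts were used here, shared 121, and in the printed stretch Rbm3-ps differed from Rbm3 at 0 and Gm10156 at 1 of the 60 bases. Rbm3-ps was counted at 116 to 240 reads per library and Gm10156 at 6 to 33, against 397 to 813 for Rbm3, and JTK, the cosine with and without lane, the tests between time points and the ratio over the day were therefore also computed on the sum of Rbm3-ps and Gm10156 with Rbm3, but not the tests within lanes or the correlations. The antisense gene Rbm3os overlaps 94 exonic bases of Rbm3 (2%) and held 1 to 10 counts per library.

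A promoter of Cirbp is printed for the mild-cold response element, a motif described for this gene. The stretch runs from 250 bases before a start annotated by RefSeq up to the first annotated exon of the window (chr10:80167589-80167777, plus strand, GRCm38.p6). It lies inside the span of Cirbp given above, which begins at chr10:80165985, and so downstream of the first start of that span. Capitals mark, on either strand, the mild-cold response element TCCCCGCC, GC boxes (GGGCGG) and CCAAT boxes.
Cirbp promoter: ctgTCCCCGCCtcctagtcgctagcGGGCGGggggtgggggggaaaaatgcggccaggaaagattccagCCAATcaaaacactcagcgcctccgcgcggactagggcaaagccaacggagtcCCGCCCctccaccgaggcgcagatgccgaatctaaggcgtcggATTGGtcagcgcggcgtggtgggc

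RefSeq lists 2 promoter windows for Cirbp, of which the first is printed. TCCCCGCC occurred once in its window of 300 bases and in 5.38% of 32851 promoter windows of that length, GGGCGG in 35.7% and CCAAT in 37.4%. The letters of an E box (CACGTG, in 7.15% of windows), a heat-shock element core (GAANNTTC, 7.86%), a cAMP response element (TGACGTCA, 1.79%) and a D box (TTATGTAA, 0.938%) were not in this window. The second window held 0 matches to TCCCCGCC and CCAAT and 4 to GGGCGG. All motifs were searched on both strands, and a match is a description of letters, not of binding.

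Cirbp was high from ZT3 to ZT12 and lower from ZT15 to ZT0. The levels are CPM, read counts brought to a common library total after scaling of the libraries by trimmed mean of M-values (TMM). At ZT0 the 4 mice had 14.0, 15.3, 12.0 and 23.2 CPM of Cirbp, a mean of 16.1 ± 4.89 (SD, n = 4). At ZT3 they had 42.5, 34.2, 28.2 and 27.2 CPM (33.0 ± 7.05), and at ZT6 they had 32.7, 29.3, 32.5 and 37.0 CPM (32.9 ± 3.19). Cirbp therefore stood at its highest level from ZT3 on, and no mouse of ZT3 or ZT6 was as low as any mouse of ZT0.

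At ZT9 the mice had 27.5, 30.1, 31.2 and 29.7 CPM of Cirbp (29.6 ± 1.54, SD, n = 4), the narrowest spread of the day. At ZT12, when the lights go off, they had 29.1, 30.5, 34.1 and 26.2 CPM (30.0 ± 3.24). The plateau thus lasted over the 4 time points from ZT3 to ZT12, whose mice overlapped. At ZT15 the mice had 17.8, 14.8, 11.1 and 12.0 CPM (13.9 ± 3.05), the lowest mean of the day.

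At ZT18 Cirbp was at 13.1, 14.2, 22.1 and 16.8 CPM (16.6 ± 4.02, SD, n = 4) and at ZT21 at 25.9, 21.1, 24.2 and 20.5 CPM (22.9 ± 2.57). Ordered by mean, ZT3, ZT6, ZT12 and ZT9 stood above ZT21, ZT18, ZT0 and ZT15. Mice of neighbouring ranks overlapped throughout this order except between ZT9 and ZT21, where the lowest mouse of ZT9 (27.5 CPM) was above the highest of ZT21 (25.9 CPM). The mean of ZT3 was 2.37 times that of ZT15.

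Rbm3 followed a flatter course that was highest in the dark phase. At ZT0 the mice had 32.4, 40.6, 34.1 and 36.3 CPM of Rbm3 (35.9 ± 3.56, SD, n = 4). At ZT3 they had 23.8, 22.8, 34.6 and 35.3 CPM (29.1 ± 6.76), the lowest mean and the widest spread of the day. At ZT6 they had 30.8, 29.3, 28.9 and 32.1 CPM (30.3 ± 1.46). The 4 mice of ZT3 formed a low and a high pair, and replicates 1 and 2, low in Rbm3, were those with the most Cirbp at that time. Replicate 2 also had the highest sum of skeletal muscle markers of all libraries (5026 CPM, against a median of 341 CPM). The part of muscle in this split was not tested.

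At ZT9 Rbm3 was at 28.9, 30.2, 36.2 and 33.4 CPM (32.2 ± 3.26, SD, n = 4) and at ZT12 at 33.6, 33.1, 37.1 and 42.5 CPM (36.6 ± 4.33). At ZT15 it was at 36.3, 40.2, 47.4 and 42.0 CPM (41.5 ± 4.61), the highest mean of the day, at the time point at which Cirbp was lowest. The mean of ZT15 was 1.42 times that of ZT3.

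At ZT18 the mice had 38.7, 42.5, 40.0 and 33.8 CPM of Rbm3 (38.7 ± 3.67, SD, n = 4) and at ZT21 they had 32.0, 36.2, 34.9 and 43.3 CPM (36.6 ± 4.80). Ordered by mean, the time points ran ZT15, ZT18, ZT12, ZT21, ZT0, ZT9, ZT6 and ZT3, and mice of neighbouring ranks overlapped at every place in this order. Differences between time points took up 53.3% of the variance of Rbm3 CPM over the 32 mice and 82.2% of that of Cirbp. With few mice per time point such a share is not nil even without an effect of time, and it was not computed for other genes.

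**Figure D1:**
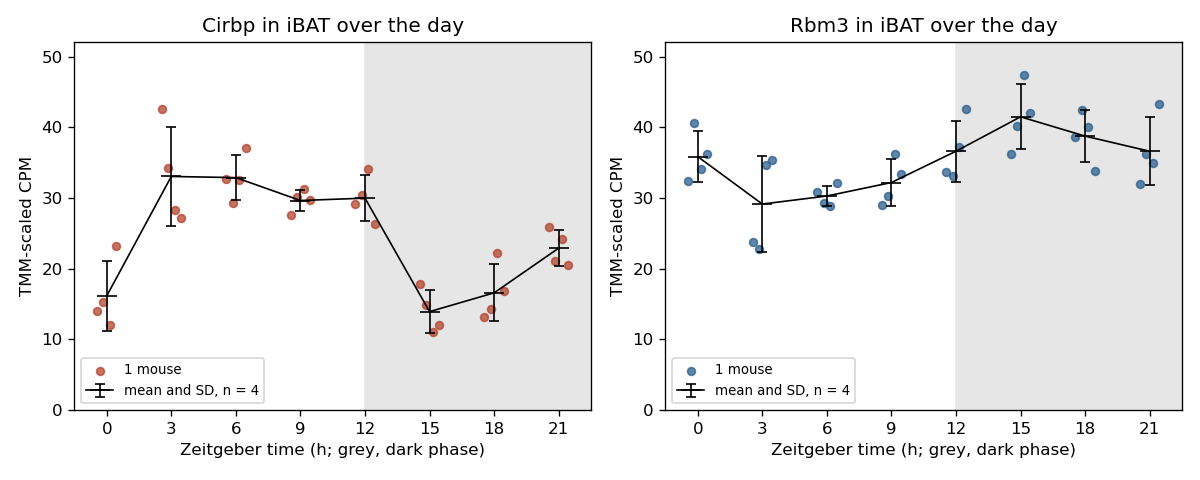
TMM-scaled CPM (vertical axes, from 0) of Cirbp (left) and Rbm3 (right) against Zeitgeber time in hours. Each point is 1 mouse, the black line joins the means with SD bars (n = 4), and the dark phase is grey. Cirbp holds means of 29.6 to 33.0 CPM from ZT3 to ZT12 and 13.9 CPM at ZT15, while Rbm3 moves between 29.1 CPM at ZT3 and 41.5 CPM at ZT15.

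Whether the transcripts oscillated was tested by JTK, which compares the ranks of a gene's values with cosine templates. Both members passed P under 0.05, as did 36.9% of the 15505 tested genes. By this exact test Cirbp had P = 3.2e-06 (Benjamini-Hochberg (BH) adjusted over all genes, 9.73e-05) with a lag of 6.0 h, and Rbm3 had P = 1.73e-04 (BH adjusted 0.00184) with a lag of 16.5 h, both at a period of 21 h. After BH adjustment 27.5% of genes passed.

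A 24 h cosine, tested by edgeR quasi-likelihood, was passed by both members and by 36.1% of tested genes. Its amplitude, its peak time and their SEs come from a least-squares fit to log2 CPM. For Cirbp the fitted amplitude was 0.54 on the log2 scale (SE 0.10), a peak 2.12 times the trough, with the peak at ZT6.55 (SE 0.685 h) and a BH adjusted p of 2.1e-04. For Rbm3 the amplitude was 0.22 (SE 0.04), a peak 1.36 times the trough, with the peak at ZT16.8 (SE 0.751 h) and a BH adjusted p of 7.7e-04. The fitted peaks lay 10.3 h apart (SE 1.02 h). This SE joins those of the 2 peaks as if independent, although both genes were measured in the same libraries. Against the 5602 genes past the threshold, whose median amplitude was 0.22, Cirbp ranked at 480 and Rbm3 at 2676. A test of any difference between the 8 time points, passed by 39.8% of genes, gave a BH adjusted p of 2.3e-06 for Cirbp and 0.0154 for Rbm3 (edgeR).

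Each time point was sequenced on a single lane: lane 2 carried ZT0 to ZT6, lane 3 carried ZT9 to ZT15 and lane 4 carried both later time points, so that time and lane cannot be told apart between lanes. Within a lane Cirbp differed between time points on lane 2 (edgeR, BH adjusted p = 0.00851, where 13.3% of 14866 genes passed) and lane 3 (0.00203, where 1.93% of 14826 passed), and did not pass on lane 4 (0.124, where 4.48% of 14486 passed). Both of the steep changes of Cirbp fell inside a lane. Rbm3 passed within no lane (edgeR, BH adjusted p = 0.245, 0.193 and 0.716 on lanes 2, 3 and 4), with an unadjusted p of 0.108, 0.0170 and 0.464. With lane as a further term in the cosine fit, which 17.2% of genes passed, the BH adjusted p was 7.8e-05 for Cirbp and 0.0188 for Rbm3 (edgeR). For Rbm3 this rested on 1 library: without replicate 3 of ZT15 it was 0.0586, and with the copies summed it was 0.131.

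Time points 12 h apart were compared next, each contrast with BH adjustment over all genes (edgeR). Cirbp changed in 3 of 4. At ZT12 it was 1.86 times its level at ZT0 (log2 fold change 0.89, SE 0.18, adjusted p = 9.4e-04; 7.71% of genes rose). At ZT15 it was 0.421 times its level at ZT3 (log2 fold change -1.24, SE 0.18, adjusted p = 2.3e-05; 7.28% of genes fell), and at ZT18 it was 0.504 times its level at ZT6 (-0.99, SE 0.18, adjusted p = 3.3e-04; 8.68% fell). At ZT21 the ratio to ZT9 was 0.773 (log2 fold change -0.37, SE 0.17, adjusted p = 0.183; 9.62% of genes passed in either direction). Summed markers of other cell types did not overlap in some of these pairs either. Between ZT12 and ZT0 these were endothelial (578 to 634 against 711 to 892 CPM), fibroblast (536 to 732 against 322 to 477) and lymphoid markers (12.1 to 14.9 against 8.02 to 11.1), between ZT15 and ZT3 endothelial markers (635 to 746 against 770 to 859), and between ZT21 and ZT9 fibroblast markers (303 to 517 against 522 to 966). Their part in the contrasts of either member was not tested.

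For Rbm3, 2 of the 4 contrasts passed, both with more transcript in the dark phase. At ZT15 it was 1.42 times its level at ZT3 (log2 fold change 0.51, SE 0.12, adjusted p = 0.00662; 6.89% of genes rose), and at ZT18 it was 1.28 times its level at ZT6 (0.36, SE 0.12, adjusted p = 0.0487; 8.18% rose). ZT12 and ZT0 had a ratio of 1.02 (log2 fold change 0.03, SE 0.12, adjusted p = 0.901) and ZT21 and ZT9 a ratio of 1.14 (0.19, SE 0.12, adjusted p = 0.381). Each of these contrasts joins libraries of different lanes. The contrast of ZT18 with ZT6 was the least secure: with the copies summed its log2 fold change was 0.22 and its adjusted p rose to 0.199. When any 1 library was left out the adjusted p lay between 0.0387 and 0.152, at or above 0.05 in 23 of 32 cases. With the 8 libraries of the pair alone the contrast of ZT15 with ZT3 had an adjusted p of 0.0762.

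The mice of ZT12 and ZT0 did not overlap in Cirbp (as for 16.3% of genes), nor did those of ZT15 and ZT3 (17.3%), ZT18 and ZT6 (22.9%) or ZT21 and ZT9 (14.3%). In Rbm3 they did not overlap between ZT15 and ZT3, nor between ZT18 and ZT6, and overlapped in the other two pairs.

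Of the 8 steps between neighbouring time points, 2 passed for Cirbp. From ZT0 to ZT3 it rose 2.05-fold (log2 fold change 1.03, SE 0.18, edgeR BH adjusted p = 4.7e-04; 7.16% of genes rose and the mice did not overlap in 16.0%). From ZT12 to ZT15 it fell, to 0.464 times (-1.10, SE 0.18, adjusted p = 8.3e-04; 1.02% of genes fell and the mice did not overlap in 10.1%). Fibroblast markers also differed over the first of these steps, with a summed 322 to 477 CPM at ZT0 and 581 to 891 CPM at ZT3, and overlapped over the second (536 to 732 CPM at ZT12, 318 to 763 at ZT15). Lymphoid markers overlapped over the first step and not over the second (12.1 to 14.9 CPM at ZT12, 7.27 to 10.6 at ZT15), and endothelial markers were higher at ZT15 (578 to 634 CPM at ZT12, 635 to 746 at ZT15). The part of these markers in the steps of Cirbp was not tested. The step from ZT21 to ZT0 had a log2 fold change of -0.50 (SE 0.18, adjusted p = 0.0799) and that from ZT18 to ZT21 one of 0.47 (SE 0.18, adjusted p = 0.174). Without replicate 4 of ZT0, the mouse with 23.2 CPM, the step from ZT21 to ZT0 was -0.73 with an adjusted p of 0.00601.

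For Rbm3 0 of 8 steps passed by edgeR or by DESeq2, and 1 had an unadjusted p under 0.05. That step was ZT0 to ZT3 (log2 fold change -0.30, SE 0.13, edgeR BH adjusted p = 0.103), the same interval in which Cirbp rose. Its adjusted p was 0.0468 without replicate 4 of ZT3 and 0.0289 with skeletal muscle markers as a covariate.

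**Figure D2:**
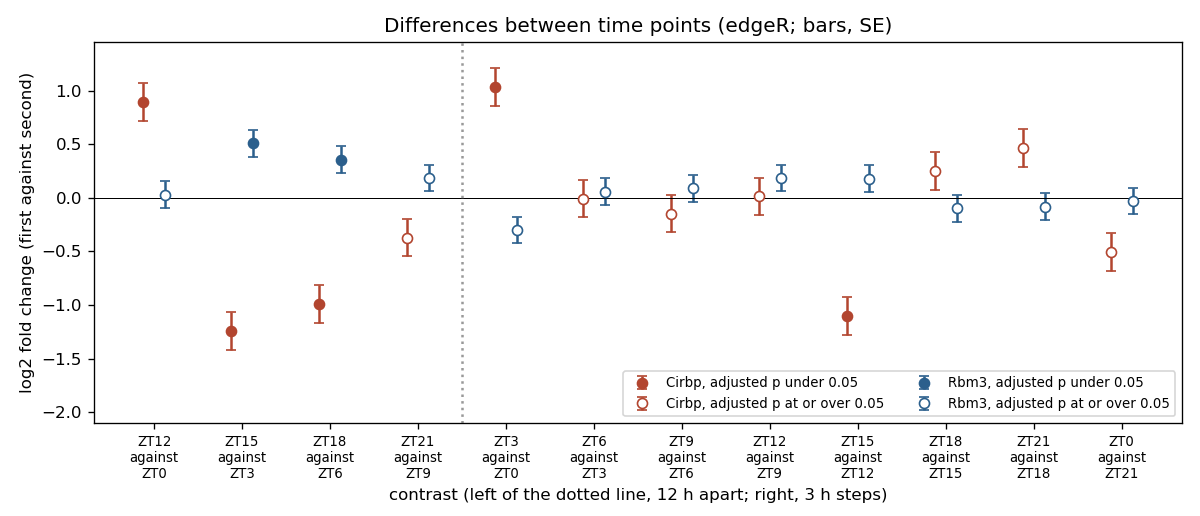
Log2 fold changes of Cirbp (red) and Rbm3 (blue) for 4 contrasts 12 h apart and 8 steps of 3 h, first against second time point, with SE bars from edgeR. Filled points have a BH adjusted p under 0.05. For Cirbp, ZT3 against ZT0 (1.03) and ZT15 against ZT12 (-1.10) stand out among the steps, and for ZT15 against ZT3 the 2 genes lie on opposite sides of 0 (-1.24 and 0.51).

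The 2 genes were then compared within each mouse, as the log2 ratio of Cirbp to Rbm3 counts, which does not depend on the scaling of the library. The ratio averaged -1.19 ± 0.38 (SD, n = 4) at ZT0, 0.19 ± 0.61 at ZT3, 0.12 ± 0.09 at ZT6, -0.11 ± 0.09 at ZT9 and -0.29 ± 0.28 at ZT12. It was -1.59 ± 0.46 at ZT15, -1.25 ± 0.37 at ZT18 and -0.67 ± 0.33 at ZT21. The fitted cosine of the ratio had an amplitude of 0.75 (SE 0.12) and a peak at ZT6.05 (SE 0.624 h). Over 100000 permutations of the time labels its p was 2e-05 (two-sided), so the daily courses of the 2 genes differed beyond the spread between mice.

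Within lanes the ratio differed between time points on lane 2 (exact permutation test, two-sided, n = 12, p = 0.00554, BH over 3 lanes 0.00831) and lane 3 (exact permutation test, n = 12, p = 0.00173, BH 0.00519). On lane 4 it did not pass (exact permutation test, n = 8, p = 0.114). With the copies of Rbm3 summed, the permutation p was 1e-05, the smallest that 100000 resamples can give, with an amplitude of 0.70 (SE 0.11).

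Per exonic length, the scale on which levels of different genes can be set side by side, Cirbp averaged 9.36 and Rbm3 7.47 RPKM, CPM divided by the exonic length in kilobases. The order of the 2 changed over the day. At ZT3 Cirbp was at 12.7 ± 2.71 RPKM (SD, n = 4) and Rbm3 at 6.20 ± 1.44, with Cirbp higher in 4 of 4 mice, as also at ZT6, ZT9 and ZT12. At ZT15 Cirbp was at 5.35 ± 1.17 RPKM and Rbm3 at 8.83 ± 0.982, with Cirbp higher in 0 of 4 mice, as also at ZT18. At ZT0 Cirbp was the higher in 1 of 4 mice and at ZT21 in 3 of 4. The exonic lengths are unions over annotated transcripts, so these levels depend on which transcripts iBAT makes.

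**Figure D3:**
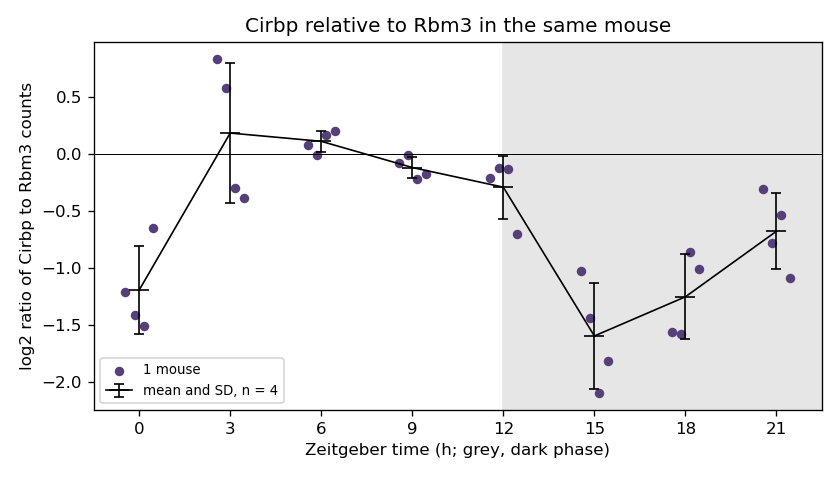
Log2 ratio of Cirbp to Rbm3 counts in the same mouse (vertical axis) against Zeitgeber time in hours, with each mouse as a point and mean and SD (n = 4) in black. The mean lies between -0.29 and 0.19 from ZT3 to ZT12 and falls to -1.59 at ZT15.

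Rbm3-ps was also counted by itself, and its course was not tested against that of its parent gene. Its mean was lowest at ZT0, with 8.24 CPM ± 1.27 (SD, n = 4), and highest at ZT12, with 13.2 CPM ± 1.04, with the fitted peak of Rbm3-ps at ZT12.3 and an edgeR BH adjusted p of 0.0108 for the cosine, which was 0.221 with lane in the fit. Over the 32 libraries its log2 CPM had a Pearson r of 0.34 with Rbm3, and its deviations from the time-point means one of 0.52, as a description, since both share libraries and possibly reads. The sum of Rbm3 and its copies ran from 38.8 CPM ± 7.84 at ZT3 to 53.0 CPM ± 6.00 at ZT15.

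Other cold-inducible glycine-rich and cold-shock-domain RNA-binding proteins were described beside the members. Of 8 listed genes, members included, 7 were tested and 3 passed the 24 h cosine (edgeR, BH; 36.1% over all genes), 2 with a peak in the light phase and 1 in the dark phase. Between time points 4 of 7 passed (39.8% over all genes), among them Rbmxl1 (adjusted p = 0.00188), a relative of Rbmx. Besides the members, the gene past the cosine was Carhsp1, a cold-shock-domain protein that binds RNA, with an amplitude of 0.23 (SE 0.05), a peak at ZT8.80 and an adjusted p of 0.0016. It was at 223 CPM ± 27.5 (SD, n = 4) at ZT12 and 148 CPM ± 14.7 at ZT21, but with lane in the fit its adjusted p was 0.0814. Rbmx, an X-linked relative with a similar RNA-recognition motif, did not pass (0.11, SE 0.05, adjusted p = 0.151). The median amplitude of this list was 0.12, against 0.14 over all tested genes.

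Among SR splicing factors, CLK kinases and other regulators tied to poison exons, 5 of 17 passed the cosine (edgeR, BH; 36.1% over all genes), 1 with a peak in the light phase and 4 in the dark phase, and 10 of 17 passed the test between time points (39.8% over all genes). CLK kinases phosphorylate SR proteins, and this system is known to respond to small temperature changes. The amplitudes of those that passed were small. Srsf3 had 0.19 (SE 0.05, adjusted p = 0.0113) with a peak at ZT0.373, and with lane in the fit its adjusted p was 0.736. Srsf1, an SR protein that acts in splice-site choice, had 0.18 (SE 0.04, adjusted p = 0.00395) with a peak at ZT18.8. Clk2 had 0.12 (SE 0.04, adjusted p = 0.0202) with a peak at ZT18.1, and Srsf10 had 0.14 (SE 0.03, adjusted p = 0.00418) with a peak at ZT22.9, but with lane in the fit the adjusted p of Srsf10 was 0.320. The median amplitude of the list, 0.11, was below that over all tested genes.

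Heat-shock genes formed the list with the most dark-phase peaks. Of 18 listed, 17 passed the cosine (edgeR, BH; 36.1% over all genes), 16 with a peak in the dark phase, where over all genes 2854 of the 5602 peaked in the light phase. Their median amplitude was 0.62. Hsph1, a co-chaperone of the HSP70 family, averaged 16.1 CPM ± 2.35 (SD, n = 4) at ZT9 and reached 174 CPM ± 63.6 at ZT0 (amplitude 1.29, SE 0.23, adjusted p = 1.5e-04). Hspa1b, an inducible HSP70, was at 12.4 CPM ± 7.43 at ZT15 and 0.847 CPM ± 0.325 at ZT9 (amplitude 1.12, SE 0.32, adjusted p = 0.00716). Of those that passed, the mitochondrial chaperonins Hspd1 and Hspe1 had the smallest amplitudes, 0.13 (SE 0.04, adjusted p = 0.0149) and 0.19 (SE 0.06, adjusted p = 0.0175), and with lane in the fit their adjusted p was 0.166 and 0.143 (edgeR, BH).

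The mean log2 CPM of 6 of the listed heat-shock genes (Hspa1a, Hspa1b, Hspa8, Hsp90aa1, Hsph1 and Dnajb1) is called the heat-shock score. The score was 6.15 ± 0.53 (SD, n = 4) at ZT0, 5.74 ± 0.84 at ZT15 and 5.33 ± 0.34 at ZT18, the 3 time points with the lowest Cirbp. It was 4.36 ± 0.28 at ZT21, 4.26 ± 0.25 at ZT3, 3.93 ± 0.21 at ZT12, 3.69 ± 0.11 at ZT6 and 3.65 ± 0.07 at ZT9.

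Of the 11 listed clock genes all passed the cosine (edgeR, BH; 36.1% over all genes), 5 with a peak in the light phase and 6 in the dark phase. Their median amplitude was 1.34, and that of Cry2 lay below the amplitude of Cirbp. Clock, whose transcript CIRBP is known to bind, averaged 41.7 CPM ± 2.23 (SD, n = 4) when the lights went off at ZT12 and 90.0 CPM ± 10.0 at ZT0, with an amplitude of 0.55 (SE 0.03, adjusted p = 2.9e-13) and a peak at ZT23.6. Its amplitude was within 1 SE of that of Cirbp, while Dbp, a clock output factor, had 2.66 (SE 0.10, adjusted p = 6.9e-19) with a peak at ZT10.1. Npas2, a paralogue of Clock, had an amplitude of 2.54 (SE 0.14, adjusted p = 9.6e-15) with a peak at ZT0.798, and Cry2, a clock repressor, had the smallest, 0.32 (SE 0.06, adjusted p = 1.6e-04), with an adjusted p of 0.532 with lane in the fit.

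**Figure D4:**
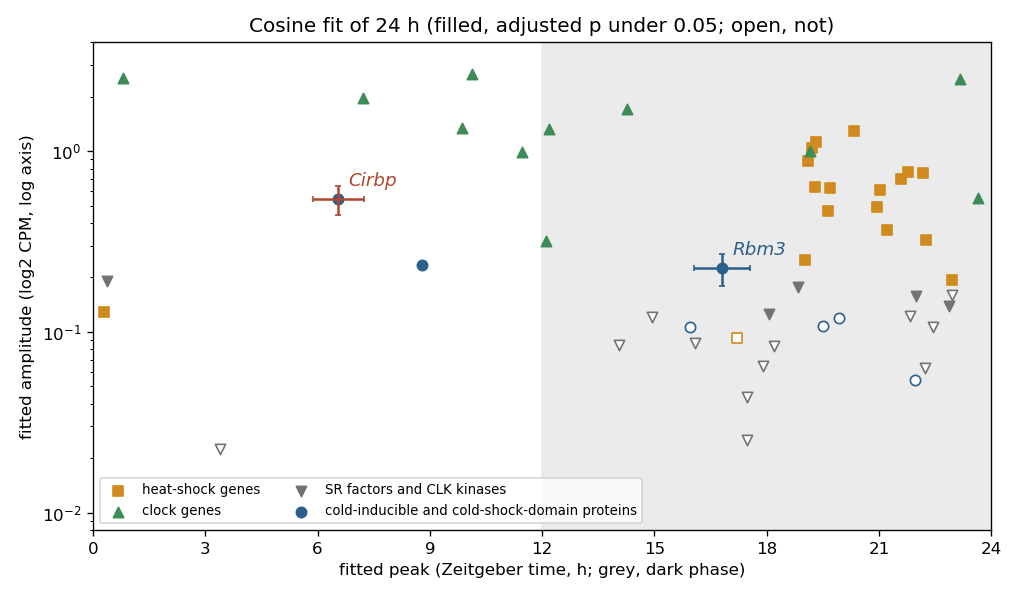
Fitted amplitude of the 24 h cosine on the log2 scale (vertical, log axis) against the fitted peak in Zeitgeber hours, for the members and 4 gene lists. Filled symbols have a BH adjusted p under 0.05 (edgeR), and the members carry SE bars. Cirbp at ZT6.55 and Rbm3 at ZT16.8 lie apart, and 16 heat-shock genes that passed lie in the dark phase, most of them at larger amplitudes than Rbm3 (0.22).

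Between mice of the same time point, 5 relations were tested on deviations of log2 CPM from the time-point means, by permuting mice within time points (100000 resamples, two-sided, n = 32). Cirbp and Rbm3 had a Pearson r of -0.37 (p = 0.0817, BH over the 5 relations 0.204) and a Spearman rho of -0.37 (p = 0.0887, BH 0.222), and thus did not pass. Within lanes r was -0.31, -0.52 and -0.36 on lanes 2, 3 and 4 (exact permutation p = 0.407, 0.132 and 0.387). Without the 2 libraries farthest from the median of Cirbp it was -0.55 (permutation p = 0.0203, not adjusted). With library size alone as the scaling it was -0.11.

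Cirbp and the heat-shock score had the largest coefficient, a Pearson r of -0.54 (permutation p = 0.0217, BH 0.109) and a Spearman rho of -0.59 (p = 0.00323, BH 0.0162). The rank correlation thus passed and the linear one did not, but the checks that follow are given for r alone. Within lanes r was -0.74, -0.33 and -0.73 (exact permutation p = 0.0583, 0.664 and 0.0955). Without the 2 libraries farthest in Cirbp r was -0.33 (permutation p = 0.316), so the relation rested in part on them. The coefficient lay further from 0 without either of replicates 1 and 2 of ZT15: without replicate 1 r was -0.66 (permutation, BH 0.0095), and without replicate 2, whose score was 4.49 against a time-point mean of 5.74, it was -0.68 (BH 0.0123). Over all libraries left out in turn it lay between -0.68 and -0.43 (BH up to 0.227, without replicate 4 of ZT15), and with library size alone as the scaling it was -0.42 (BH 0.519).

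Rbm3 and the heat-shock score had an r of 0.09 (permutation p = 0.666, BH 0.706, rho 0.02). Ucp1, the uncoupling protein that makes the heat of brown fat, had an r of -0.07 with Cirbp (permutation p = 0.706, BH 0.706, rho -0.08) and of -0.12 with Rbm3 (p = 0.503, BH 0.706, rho -0.09).

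**Figure D5:**
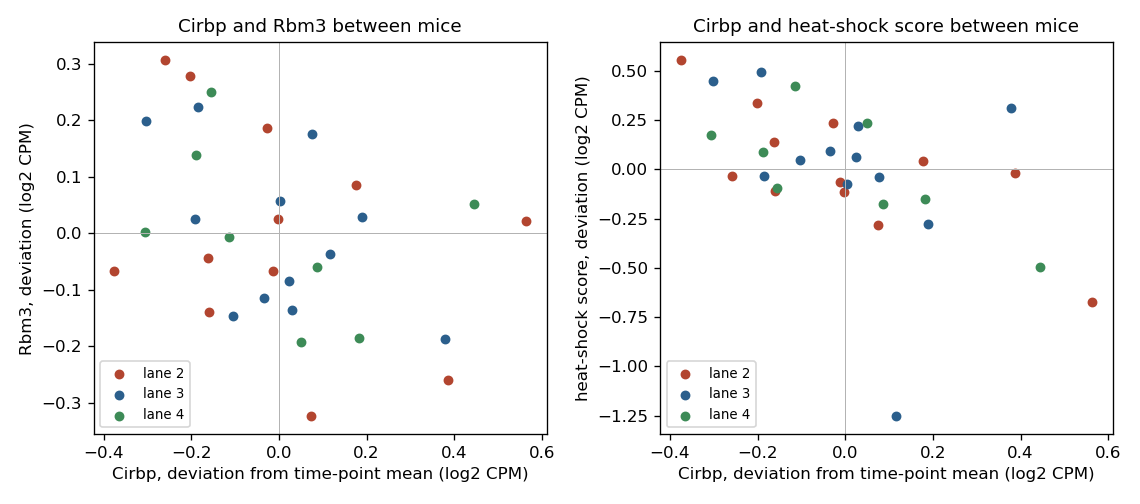
Deviations of log2 CPM from the time-point mean in each of 32 mice: Cirbp (horizontal axes) against Rbm3 (left, r = -0.37) and against the heat-shock score (right, r = -0.54), coloured by lane. In the right panel 1 mouse of ZT15 lies at -1.25, far below the others.

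The genes most like each member over the 32 libraries are given as a description, with no test, since they share time points, lanes and libraries. Among 8526 other tested genes with a mean of at least 10 CPM, the highest Pearson r of log2 CPM with Cirbp were those of Pigl (0.85), Wdr81 (0.85), Fchsd2 (0.84), Pacs1 (0.84) and Gab2 (0.83). The fitted peaks of all 5 lay between ZT5.25 and ZT7.40. The lowest were those of Mapk14 (-0.93), the p38 kinase of the stress response, Trim65 (-0.92) and Fgfr1op (-0.89), which peaked between ZT18.3 and ZT19.1. On deviations from the time-point means, r with Cirbp ran from 0.14 (Gab2) to 0.70 (Pigl) among the highest genes. Among the lowest it ran from -0.79 (Mapk14) to -0.63 (Fgfr1op). These deviations are part of the r by which the genes were picked.

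For Rbm3 the highest were Phrf1 (0.77), G0s2 (0.76), an inhibitor of the lipase ATGL, Pprc1 (0.75), a coactivator related to PGC-1, LTO1 (0.73) and Kri1 (0.73). The lowest were Maea (-0.73), Fbn1 (-0.72), the extracellular matrix protein fibrillin, and Lrrc8d (-0.71). The r of Cirbp and Rbm3 with each other was -0.66, which placed Cirbp at rank 15 from the lowest among the genes compared with Rbm3, and Rbm3 at rank 352 from the lowest among those compared with Cirbp.

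Library totals ran from 16300770 to 18254659 counts, with 190 to 709 of them on Cirbp and 397 to 813 on Rbm3. Markers of brown adipocytes (8 of 8 counted in every library) summed to 9679 to 15661 CPM. Skeletal muscle markers (5 of 6 counted in every library, none at 0 throughout) summed to between 1.95 and 5026 CPM, with the lowest to highest library at 492 to 4859 CPM at ZT15 against 5.41 to 5026 at ZT3. With their level as a covariate, the BH adjusted p of the cosine was 2.34e-04 for Cirbp and 2.19e-04 for Rbm3 (edgeR). Blood markers summed to 265 to 1137 CPM, lymphoid markers to 7.27 to 28.2, macrophage markers to 30.4 to 208, endothelial markers to 578 to 892 and fibroblast markers to 303 to 968 CPM. The part of these 5 lists in the results was not tested.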

How the data were processed

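RNA of iBAT from 32 mice was sequenced as stranded paired-end libraries of 100 bases. The authors mapped the reads with GSNAP to mm10 and counted them per Ensembl gene with HTSeq (0.6.1), per the submitters' processing notes. Whether strand was used in counting is not given in the sources used here. The deposited values are raw counts, with no normalization by the authors. At 16300770 to 18254659 counts per library, the precision of the members is set by 190 to 813 reads per library. No 2 libraries of a time point agreed within sampling noise (lowest mean chi-square per gene 7.37 over 48 pairs).

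Genes were filtered with filterByExpr by time point (15505 of 50686 remained) and scaled by TMM in edgeR (4.0.16, R 4.3.3). JTK was an own implementation (periods 21 and 24 h, 15 templates, P under 0.05, Python 3.11.15). Contrasts, cosine, lane and time-point tests were edgeR quasi-likelihood tests fitted across all genes with BH adjustment and a threshold of 0.05. Amplitudes come from log2 CPM with a prior count of 2. SEs of fold changes were derived from the F statistic. The cosine test was also tried on simulated counts, whose outcome is not given here. Coordinates are those of GENCODE on GRCm38, which is not the release the authors counted with, and the promoter is from RefSeq.

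The members, lists and tests were chosen with earlier results of these data known. Named list genes are those with the largest and smallest amplitudes among genes past the cosine threshold (up to 4 a list), and, of those most like a member, the 5 highest and 3 lowest r. Rbmx and Rbmxl1 were named as further list members after their values were seen. 1 gene was left out of that list and is not reported here. Replicates are separate mice. Alternatives were DESeq2 size factors, library size alone, removal of mitochondrially encoded genes, no filter, the DESeq2 test (1.42.0), a replicate block, JTK at 24 h alone, a prior count in the ratio, the 8 libraries of a contrast alone and leaving out each library. Summing Rbm3 with its copies and the muscle covariate were added after seeing the data.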

Additional observations from a re-analysis of the deposited data

Results flagged for a closer look

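In replicate 4 of ZT12 the log2 ratio of Cirbp to Rbm3 was -0.70, far below the other 3 mice of that time point, which lay between -0.21 and -0.12. The gap took up 0.85 of the range of the 4 mice, over Dixon's critical value for groups of 4. This mouse had the least Cirbp and the most Rbm3 of its time point (26.2 and 42.5 CPM). It was 1 such mouse in 24 groups tested, and chance flags about 1 in 20 groups.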

How the results depend on the processing

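Each member kept its side of 0.05 in JTK, the 24 h cosine and the test between time points under all alternatives run. Between time points the adjusted p of Rbm3 was at most 0.0374 without any 1 library. Cirbp kept 3 of 4 contrasts and 2 of 8 steps (2 to 3 without any 1 library), and passed in 2 to 3 of 3 lanes. Rbm3 passed 2 of 4 contrasts, and 1 with library size alone, with mitochondrially encoded genes left out, with no filter, with the 8 libraries alone and with its copies summed, and 1 to 2 without any 1 library. Its cosine beside lane had an adjusted p of 0.131 with the copies summed and 0.0114 to 0.0586 without any 1 library. Of its steps 1 passed with skeletal muscle markers as a covariate, and 0 to 1 without any 1 library. Of the 5 relations 0 passed by Pearson r after BH, and 0 to 1 without any 1 library. The cause of these changes was not tested. The ratio kept a permutation p of at most 5e-05.

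Replicate numbers did not pair the mice: same-numbered libraries of different time points had a mean correlation of deviations of -0.03 (112 pairs, 49 over 0.1), and others one of 0.01. Of JTK, the cosine, the time points, the contrasts, the steps and the ratio over the day, the replicate block changed no call, and it was not run for the other tests. Its cosine gave an adjusted p of 4.62e-04 for Cirbp and 3.02e-04 for Rbm3, and it left 3 and 2 contrasts.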
